A study of Zostera marina with 23 samples.

Results

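Root was compared with leaf in eelgrass, Zostera marina, a flowering plant that lives submerged in seawater. The comparison holds 10 of the 23 libraries of the series, 4 of root (replicates 0 to 3) and 6 of leaf (replicates 0 to 5). The titles call the leaf libraries vegetative and the tissue labels call them leaf. Shoots were taken from the field in winter and planted in flow-through tanks with snails that grazed epiphytes. There the water was warmed by steps, 5 °C at the start and 15 °C at the end, and the light period was lengthened, 12 h at the start and 16 h at the end, to bring on flowering. Both tissues therefore come from plants under the same inducing regime, and no untreated plants were compared. The other libraries used here are 3 of early and 2 of late female flower and 7 of male flower, while 1 library with conflicting labels was left unassigned. Genes were tested where at least 2 of the 10 libraries held a value of at least 10, which was met by 15922 of 22733 gene identifiers.

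Roots of seagrasses anchor the plant and take up nutrients in sediment that is often without oxygen, and they depend on oxygen and sugars sent down by the shoot. Leaves carry out photosynthesis, and in seagrasses they also take up nutrients and inorganic carbon directly from the water. Leaf messenger RNA in flowering plants is usually rich in a small number of transcripts for light harvesting and carbon fixation, which are coded in the nucleus. The deposited tables hold identifiers and no gene names, so no role is given to any gene below, and markers of root or leaf cells were not analysed here. Each library is bulk tissue, where fewer cells of a type and less RNA per cell cannot be told apart. Whether replicates are separate plants is not said in the labels, and the p-values measure only the spread among these libraries, some of which may be technical.

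Values are scaled fragments, meaning fragments counted per gene and multiplied by 1 factor per library. Depth was 9298409 to 13332217 fragments per root library and 6701350 to 13613118 per leaf library. All RNA had an integrity value (RQI) above 7.2. Some libraries lay apart from their own tissue. Over the tested genes, root replicate 2 had a Pearson correlation of 0.682, 0.720 and 0.839 with root replicates 0, 1 and 3. With leaf replicates 0, 2, 3 and 5 it had 0.727 to 0.802. Leaf replicate 1 correlated at 0.634 to 0.713 with leaf replicates 0, 2, 3 and 5 and at 0.871 with leaf replicate 4. Its correlation with the early female flowers was 0.823 to 0.840. Leaf replicate 4 correlated at 0.767 to 0.868 with leaf replicates 0, 2, 3 and 5 and at 0.645 to 0.676 with the early female flowers. The remaining 4 leaf libraries correlated with each other at 0.893 or more and with early female flower at 0.497 to 0.566. With the roots, leaf replicate 1 correlated at 0.510 to 0.596 and leaf replicate 4 at 0.523 to 0.677. Whether root replicate 2 and leaf replicates 1 and 4 hold mixed or mislabelled tissue was not tested, and group means that include them rest on the labels. Counts of called genes are given with these 3 libraries and without them.

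The place of each library between the tissues was measured on genes called without that library, with the 3 libraries left out of both the calls and the means. On this scale 0 is the leaf mean and 1 is the root mean of log2(scaled fragments + 1), and the value is the median over genes. The library measured was also left out of the mean of its tissue, so the ends of the scale differ between libraries. Root replicates 0, 1, 2 and 3 stood at 1.08, 1.02, 0.581 and 0.799. Leaf replicates 0, 1, 2, 3, 4 and 5 stood at 0.0169, 0.780, 0.0498, 0, 0.393 and 0. Leaf replicate 1 thus stood above root replicate 2 on this scale, although its correlation with the roots was below that with the leaves. Root replicate 3 stood below root replicates 0 and 1, each placed against the mean of the other roots and on its own set of genes. The scale holds leaf and root alone, so a high place does not mean that a library is most like root. In leaf replicate 1, 3805 genes lay at least 4-fold above the mean of leaf replicates 0, 2, 3 and 5. Of these, 83.1% were also 4-fold up in early female flower and 73.5% in root, beside 24.1% and 26.4% of all genes tested. For 2658 such genes in leaf replicate 4 the shares were 70.1% and 69.8%.

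The 3 libraries differed in which genes moved. In root replicate 2, the genes higher in root stood at a median of 0.496 and the genes higher in leaf at 0.702, so the shift was larger among the genes of its own tissue. In leaf replicate 1, the genes higher in root stood at 0.874 and those higher in leaf at 0.615. In leaf replicate 4 the medians were 0.476 and 0.294. On the log2 scale the larger shift in both leaf libraries was thus among the genes of root. On linear scaled fragments, root replicate 2 stood at 0.180 for the genes higher in root and at 0.887 for those higher in leaf. Leaf replicate 1 stood at 0.659 and 0.858 and leaf replicate 4 at 0.186 and 0.555 in the same order, so for these leaves the larger linear shift was among the genes of leaf. Spread between genes was wide: the middle 50% of the genes higher in root covered 0.310 to 1.20 in leaf replicate 1, against -0.110 to 0.142 in leaf replicate 5.

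**Figure D1:**
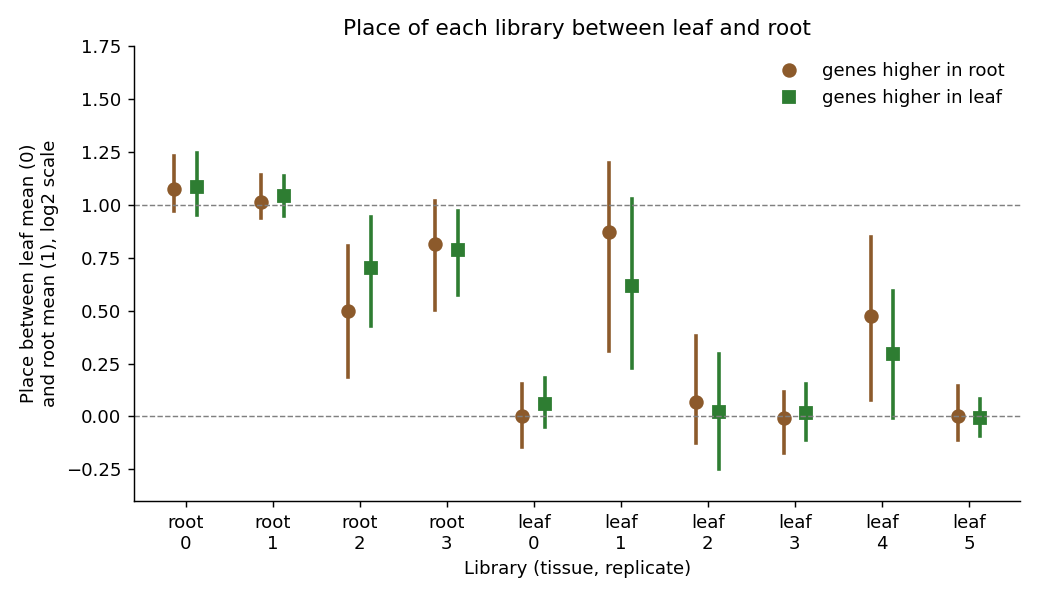
Place of each library (horizontal axis) between the leaf mean (0) and the root mean (1) on the log2 scale. Genes were called and means made without that library. Symbols are medians and lines the middle 50% of genes. On this scale of leaf and root alone, root replicate 2 and leaf replicates 1 and 4 lie between the tissues. Root replicate 3 stands at 0.813 for the genes higher in root and 0.784 for those higher in leaf.

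In the fit of all 10 libraries more genes were higher in root than in leaf, by a small margin that depended on scaling. A gene was called at an adjusted p under 0.05 (limma, Benjamini-Hochberg adjustment over all genes tested) and a change of at least 2-fold. Of the 15922 genes, 2046 (12.9%) had higher levels in root and 1725 (10.8%) in leaf, 23.7% together. Without root replicate 2 and leaf replicates 1 and 4, the numbers were 5048 (31.7%) for root and 2807 (17.6%) for leaf, 49.3% together. The 2 fits shared 1969 genes of root (12.4%) and 1654 genes of leaf (10.4%), 22.8% of those tested. No gene was called in opposite directions, which was nearly fixed in advance, since the larger fit contains all libraries of the smaller. Quantile normalization turned the balance, with 1731 genes of root and 2056 of leaf over the 10 libraries. Scaling to equal totals gave 2474 and 1451. Over all genes tested the median log2 fold change was 0.48 with equal totals and 0.03 with quantile normalization, beside 0.20 with the deposited scaling. Neither scaling was run without the 3 libraries, so how far the balance of that fit depends on scaling was not tested.

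Separation of single libraries gave a different balance. In 1490 genes (9.36% of those tested) every root library lay above every leaf library, and 1173 of them were called. In 1571 genes (9.87%) every leaf library lay above every root library, and 1368 of them were called. By this count there were slightly more genes of leaf than of root. Over the 7 libraries left without the 3 that lie apart, tissues did not overlap in 5646 genes with root above leaf (35.5%) and in 4042 with leaf above root (25.4%), so the balance turned. Of the 2046 genes called higher in root, 873 had overlapping tissues, against 357 of the 1725 called higher in leaf.

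**Figure D2:**
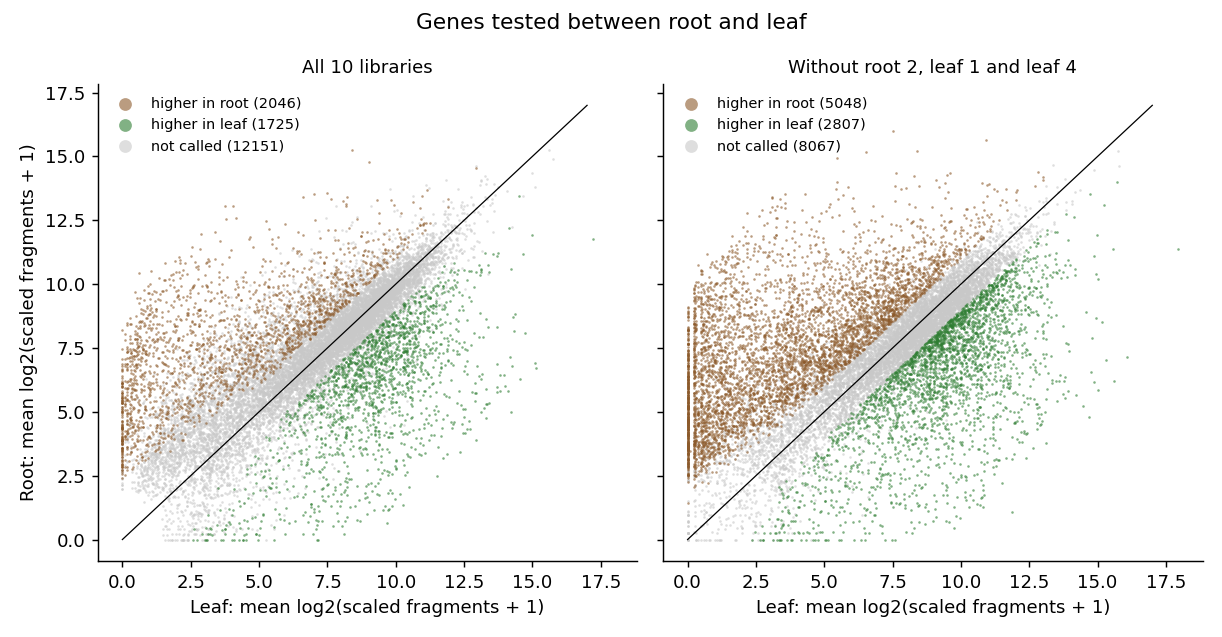
Mean log2(scaled fragments + 1) in root (vertical axis) against leaf (horizontal axis) for each of 15922 genes, in all 10 libraries and without root replicate 2 and leaf replicates 1 and 4. Brown points were called higher in root (2046 and 5048) and green points higher in leaf (1725 and 2807), and the line marks equal levels.

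Leaf replicate 1 moved the count most when single libraries were left out. Without it 5558 genes were called, 3383 of them higher in root. Without leaf replicate 4 alone 3724 were called, and without both 6802. Without root replicate 2 alone 4071 were called. Leaving out a root library that did not lie apart lowered the count, to 2654 without root replicate 0, 2581 without root replicate 1 and 2648 without root replicate 3. In each of these last 3 fits more genes were higher in leaf than in root. The count also fell without a leaf library that did not lie apart. It was 3131, 3228, 3133 and 3023 without leaf replicates 0, 2, 3 and 5, each with more genes higher in root.

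**Figure D3:**
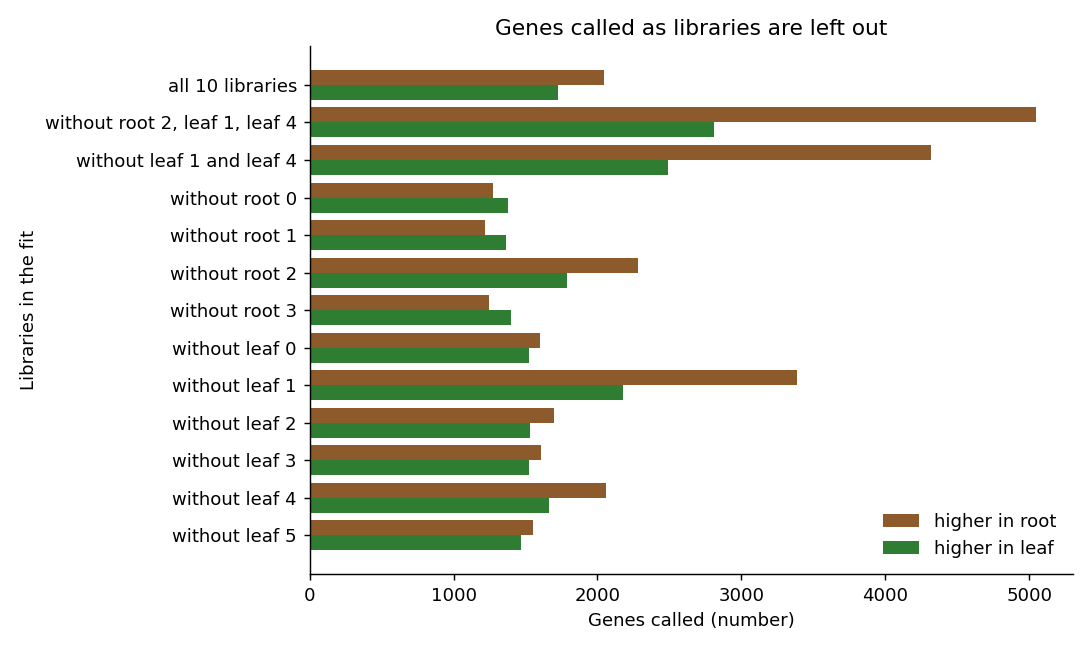
Number of genes called (horizontal axis) higher in root (brown) and higher in leaf (green) with all 10 libraries and with libraries left out (vertical axis). The bars for root reach 5048 without the 3 libraries that lie apart and 1219 without root replicate 1.

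The genes called only without the 3 libraries mostly had the same sign with them. The larger fit contains all the libraries that picked these genes, so this was nearly fixed in advance. There were 3079 such genes higher in root, of which 3037 had a positive log2 fold change over the 10 libraries. Their median log2 fold change was 2.96 without the 3 libraries and 1.60 with them, and the median standard error was 0.564 without and 0.983 with them. The 1153 such genes higher in leaf had medians of -1.51 without and -0.89 with the 3 libraries. Conversely, 77 genes of root and 71 genes of leaf were called only with all 10.

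Within-tissue spread fell when the same libraries were left out. They were left out because they lie apart from their tissue, so a fall was nearly fixed in advance. The median standard deviation per gene of log2(scaled fragments + 1) was 0.541 over 4 root libraries and 0.788 over 6 leaf libraries. Without root replicate 2 it was 0.349 in root (n = 3), and without leaf replicates 1 and 4 it was 0.462 in leaf (n = 4). A range of at least 16-fold was seen among the 4 roots in 1793 genes (11.3%) and among the 6 leaves in 3524 (22.1%). A range grows with the number of libraries, so these counts do not compare the tissues. Root replicate 2 was the lowest root in 78.5% of those 1793 genes, and leaf replicate 1 was the highest leaf in 54.3% of the 3524. Root replicate 0 was the highest root in 48.7%. Leaf replicate 0 was the lowest leaf in 36.2% and leaf replicate 4 the highest in 22.9%. For root replicate 2 and leaf replicates 1 and 4, these shares partly restate why they were left out.

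The named genes are the 2 in each direction with the highest mean FPKM in their tissue. FPKM is fragments divided by gene length and library total, which allows levels of genes to be compared. Candidates were called at 16-fold or more with and without the 3 libraries and did not overlap between the tissues, which left 547 genes for root and 406 for leaf. A ranking by FPKM favours short genes. From the ratio of scaled fragments to FPKM, the effective length of Zosma1g03620 was 0.0524 and that of Zosma1g03600 0.0765 of the median gene tested, so their FPKM depends strongly on the length correction.

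Zosma1g03620 ranked first of all genes in root by mean FPKM and 8347th in leaf. It held 14894, 15095, 612 and 2432 scaled fragments in root replicates 0 to 3, against a lowest of 4.06, a median of 10.8 and a highest of 15.6 in the 6 leaf libraries. The tissues did not overlap, although root replicates 2 and 3 were far below root replicates 0 and 1. The log2 fold change was 8.69 (SE 0.852, adjusted p = 5.02e-05, limma) over the 10 libraries and 9.44 (SE 0.662, adjusted p = 2.28e-05, limma) without the 3 libraries. The gene was at 0 in all 5 female flower libraries, where 3 fragments, the limit that a count of 0 allows, correspond to 1.57 to 2.18 scaled fragments. In male flower it was at 0 in replicates 0 to 4 and at 15.3 and 48.6 in replicates 5 and 6.

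Zosma1g03600, with an identifier close to that of Zosma1g03620, ranked 2nd in root and 7544th in leaf by mean FPKM. Root replicates 0 to 3 held 11960, 6607, 3096 and 5921 scaled fragments, against 8.12 to 29.7 in leaf with a median of 18.0. Root replicate 2 was again the lowest root, and every root lay far above the highest leaf library. Its log2 fold change was 8.45 (SE 0.421, adjusted p = 2.22e-06, limma) and 8.74 (SE 0.299, adjusted p = 2.32e-06, limma) without the 3 libraries. It was at 0 in the 3 early female libraries, at 48.6 and 51.3 in the late ones and at 0 to 70.5 in male flower.

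Zosma148g00060 was the gene with the highest mean FPKM in leaf and ranked 24th in root. Root replicates 0 to 3 held 999, 2630, 7858 and 7207 scaled fragments, against a lowest of 46136, a median of 228617 and a highest of 286330 in leaf. The 2 lowest leaf libraries were replicates 1 and 4, at 46136 and 69190, and the 2 highest roots were replicates 2 and 3. It made up 0.0113% to 0.0989% of all scaled fragments in root, against 0.584% to 2.81% in leaf, with leaf replicates 1 and 4 the lowest leaves. The log2 fold change was -5.45 (SE 0.744, adjusted p = 4.37e-04, limma) and -6.56 (SE 0.607, adjusted p = 8.86e-05, limma) without the 3 libraries. Early female flower held 2632 to 3506 scaled fragments, within the range of root, and late female flower held 14483 and 25539, between root and leaf. Male flower held 970 to 4839, with its lowest library just under the lowest root.

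Zosma330g00140 ranked 4th in leaf and 6886th in root by mean FPKM. Root replicates 0 to 3 held 48.5, 47.0, 305 and 169 scaled fragments, against a lowest of 12541, a median of 38024 and a highest of 80152 in leaf. Leaf replicate 1 was the lowest leaf, and root replicates 2 and 3 were again the highest roots. The log2 fold change was -8.42 (SE 0.637, adjusted p = 1.09e-05, limma) and -9.38 (SE 0.501, adjusted p = 7.32e-06, limma) without the 3 libraries. Early female flower averaged 3532 ± 423 scaled fragments (SD, n = 3), late female flower 4266 ± 509 (n = 2) and male flower 869 ± 506 (n = 7). Each of these groups lay between leaf and root in its mean.

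**Figure D4:**
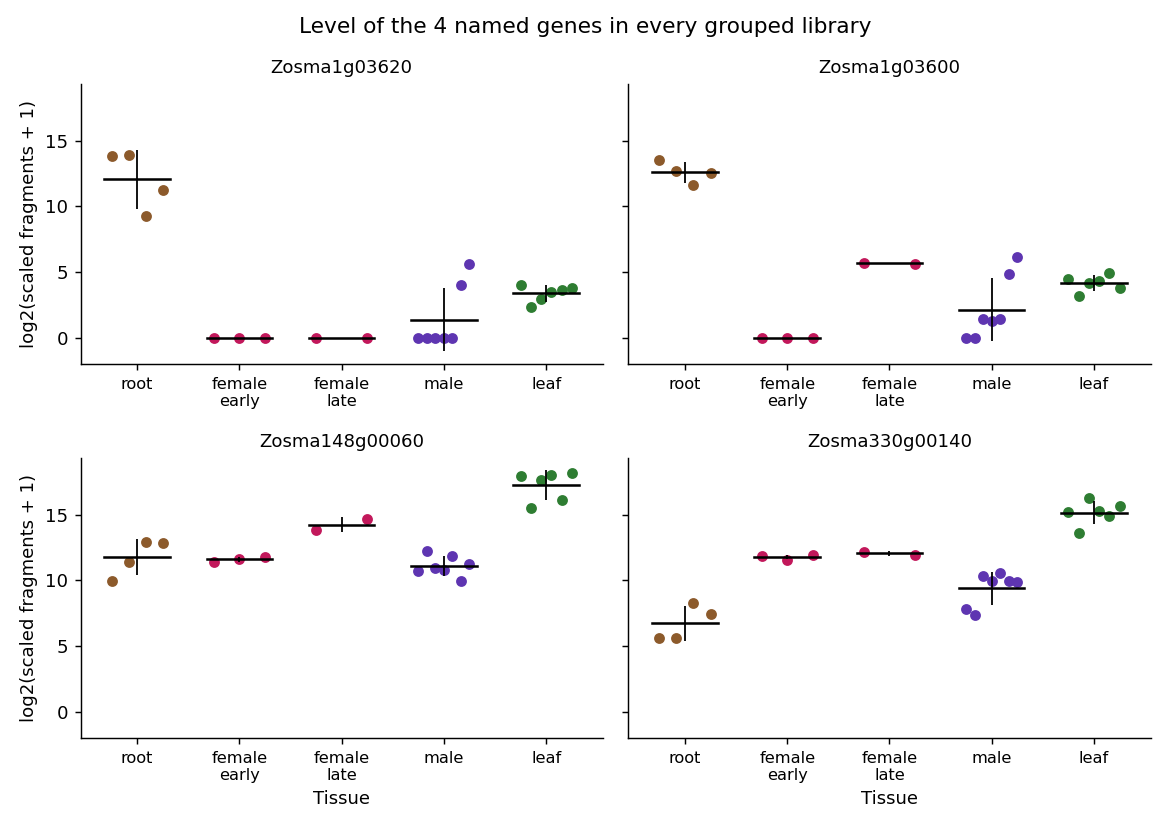
Log2(scaled fragments + 1) of the 4 named genes (vertical axis) in root, early and late female flower, male flower and leaf (horizontal axis); points are libraries, thick bars means and thin lines 1 SD. Both genes of root are at or near 0 in most flower libraries, whereas both genes of leaf are well above 0 in every library.

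Sizes of change were summarised by direction. Over the 10 libraries the median absolute log2 fold change was 3.38 among genes higher in root and 2.82 among genes higher in leaf. A change of 16-fold or more was found in 827 genes higher in root (5.19% of those tested) and 491 higher in leaf (3.08%). Without the 3 libraries there were 1971 (12.4%) and 650 (4.08%). Low levels in the other tissue were also more frequent among genes of root. Of the genes called higher in root, 334 of 2046 had under 3 fragments in every leaf library and 121 were at 0 in all 6. Of the genes called higher in leaf, 60 of 1725 had under 3 fragments in every root library and 17 were at 0 in all 4. The depths differ, with 3 fragments corresponding to 2.00 to 2.56 scaled fragments in root and 1.74 to 4.25 in leaf. Without the 3 libraries the counts under 3 fragments were 1121 of 5048 and 84 of 2807. The filter bears on these counts, since 826 tested genes reached 10 scaled fragments in root libraries alone and 537 in leaf libraries alone.

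The filter lay among very low levels. Exactly 2 of the 10 libraries reached 10 scaled fragments in 521 genes, which were tested, with a median second highest value of 15.5. Exactly 1 library reached it in 559 genes, which were not tested, with a median second highest value of 6.65. A further 3818 identifiers were at 0 in all 10 libraries.

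A smaller share of the messenger RNA of root lay in its most abundant genes. The 100 most abundant genes of each library held 16.9%, 15.8%, 17.3% and 17.6% of the scaled fragments in root replicates 0 to 3, against 17.3% to 31.5% in leaf. Root averaged 16.9% ± 0.808 (SD, n = 4) and leaf 22.7% ± 4.88 (n = 6). The difference was -5.79 percentage points (exact two-sided permutation test, p = 0.0190, where the smallest possible p is 0.00952). The ranges overlapped, with leaf replicate 1, the lowest leaf at 17.3%, below root replicate 3 at 17.6%. Without the 3 libraries the difference was -6.90 points and no value overlapped, but the exact permutation p was 0.0571, the smallest that 3 against 4 libraries allow. With the 10 most abundant genes alone the difference was -2.84 points (exact permutation p = 0.00952), with root at 3.97% to 4.49% and leaf at 4.73% to 8.90%.

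Numbers of genes at 10 or more scaled fragments did not separate the tissues in all 10 libraries. Root replicates 0 to 3 held 14862, 14877, 13436 and 14224 such genes, against 12298 to 14600 in leaf. The difference of 1316 genes (SE 511) was larger than the SD within root (681, n = 4) or within leaf (935, n = 6). The ranges overlapped, and the exact two-sided permutation test gave p = 0.0667, where the smallest possible p is 0.00952. Leaf replicates 1 and 4, at 14600 and 13754, were the highest leaves and root replicate 2 the lowest root. With these 3 left out, root averaged 14654 ± 373 genes (SD, n = 3) and leaf 12462 ± 171 (n = 4). The difference was then 2192 genes with no overlap, at the smallest exact permutation p this size allows, 0.0571.

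Among abundant genes, leaf had the larger share of calls. When the tested genes were divided into 5 classes by the mean of their root and leaf FPKM, 14.7% of the lowest class were higher in root and 3.64% higher in leaf. In the highest class, at 49.3 FPKM or more, 11.3% were higher in root and 19.3% higher in leaf. In the smaller fit of 7 libraries, 49.6% of the lowest class were higher in root and 6.59% higher in leaf, against 24.1% and 28.4% of the highest class. The direction with more calls thus changed between low and high levels in both fits. Median standard errors of the log2 fold change were 0.846 in the lowest and 0.446 in the highest class.

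The most abundant genes were largely different between the tissues. By mean FPKM, 24 of the top 100 genes of root were also in the top 100 of leaf, and 436 of the top 1000. Of the top 100 genes in root, 38 were called higher in root and 1 higher in leaf, beside 12.9% and 10.8% of all genes tested. Of the top 100 genes in leaf, 60 were called higher in leaf and 1 higher in root. A list picked by the level in a tissue favours calls in that direction. With the 3 libraries left out, 68 of the top 100 in root and 81 of the top 100 in leaf were called higher in their own tissue, beside 31.7% and 17.6% of all genes, and the top lists shared 15 genes.

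Genes called higher in root held a large share of every library of root that did not lie apart. With the sets made without the library measured and without the 3 libraries, they held 43.5%, 40.7% and 37.7% of the scaled fragments in root replicates 0, 1 and 3, against 4.18% to 6.96% in leaf replicates 0, 2, 3 and 5. Genes called higher in leaf held 6.23%, 7.34% and 13.4% in the same roots, against 49.2% to 55.6% in those leaves. Root replicate 2 held 19.6% in the genes of root and 19.8% in the genes of leaf. Leaf replicate 1 held 28.5% in the genes of root and 24.8% in the genes of leaf, and leaf replicate 4 held 20.3% and 35.4%. Root replicate 2 was the root with the smallest share in genes of its own tissue and leaf replicate 1 the leaf with the smallest.

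Median lengths of the classes were close to each other. The effective length relative to the median gene tested had a median of 0.933 among genes higher in root, 0.933 among genes higher in leaf and 1.02 among genes not called. In the fit without the 3 libraries the medians were 0.987, 0.999 and 1.01, and the middle 50% of each class overlapped the others widely.

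The flower libraries entered neither the fit of 10 libraries nor that of 7 and show where the called genes stood in other tissues. Among the 1969 genes called higher in root in both fits, the median log2(scaled fragments + 1) was 6.53 to 8.28 in the root libraries, 4.95 to 5.24 in early female flower, 5.28 and 5.31 in late female flower, 5.03 to 5.44 in male flower and 2.74 to 4.88 in leaf. No flower library thus reached the level of a root library, and each lay above the highest leaf. Among the 1654 genes called higher in leaf in both fits the medians were 5.97 to 6.79 in root, 7.49 to 7.53 in early female flower, 7.57 and 7.79 in late female flower, 6.44 to 6.87 in male flower and 8.55 to 9.85 in leaf. Female flower lay between the tissues, and male flower overlapped the range of root. Both sets were picked as high in 1 of the tissues and low in the other. That choice favours a level between them in any tissue not used to pick the genes. Over all genes tested, the median of each root, flower and leaf library lay from 7.12 to 7.61.

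**Figure D5:**
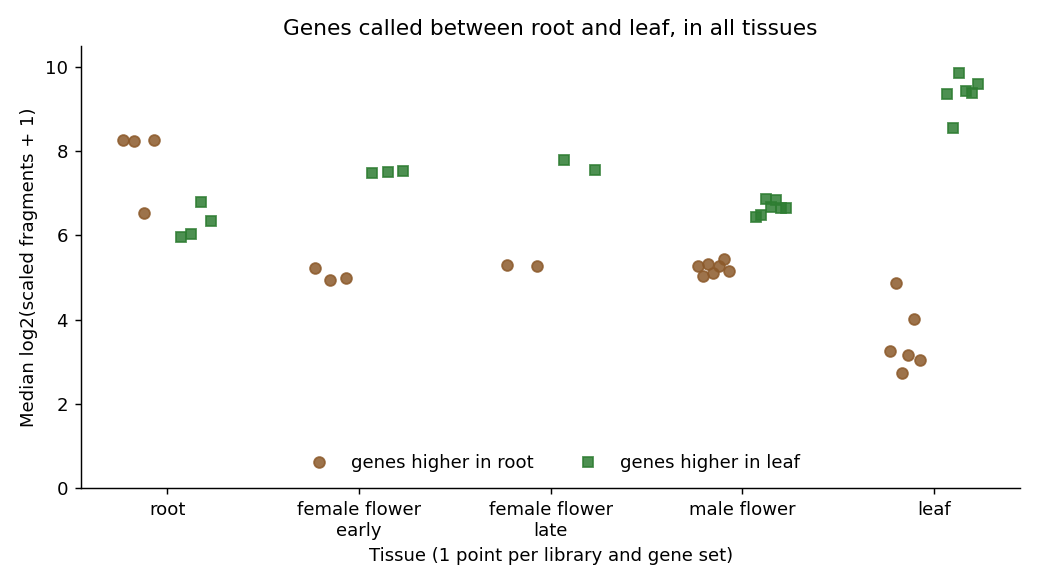
Median log2(scaled fragments + 1) per library (vertical axis) of the 1969 genes called higher in root and the 1654 called higher in leaf in both fits, by tissue (horizontal axis). The flower libraries lie between root and leaf for both sets, except that male flower, at 6.44 to 6.87, overlaps root, at 5.97 to 6.79, for the genes of leaf. A place between the tissues is favoured by how the genes were picked.

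Gene by gene, the shares for the genes of root depended on which genes were called. Of the 2046 genes called higher in root over the 10 libraries, 39.1% were nearer to root than to leaf in early female flower, 38.0% in late female flower and 36.2% in male flower. Of the 5048 called without the 3 libraries the shares were 67.8%, 65.7% and 53.1%. Of the 1969 called in both fits, measured against the means of the 7 libraries, they were 39.5%, 39.2% and 36.8%, so the rise lay in the genes called only without the 3 libraries. Leaf replicate 1, whose values correlated with early female flower as given above, was among the libraries left out, and its part in this change was not tested. The genes of leaf were nearer to root than to leaf in 61.5% of 1725 genes in early female flower, 55.9% in late female flower and 76.1% in male flower, and in 75.1%, 71.1% and 74.1% of the 2807 called without the 3 libraries. Some called genes were at least 2-fold above both root and leaf in a flower. Of the genes of root this held for 4.40% in early female and 12.4% in male flower, and of the genes of leaf for 2.14% and 5.22%. Among the genes called without the 3 libraries it held for 25.3% and 19.0% of the genes of root and for 1.67% and 5.77% of the genes of leaf, so for root the order of the flowers turned.

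Genes with consecutive identifier numbers were described by how often both were called in the same direction, with no test. Of the 1591 genes higher in root whose next identifier was also tested, 20.8% were followed by a gene higher in root, beside 12.3% over all 12676 such pairs. Of 1376 genes higher in leaf, 16.6% were followed by a gene higher in leaf, beside 11.0%. In the fit of 7 libraries the shares were 37.5% beside 31.4% for root and 22.7% beside 17.8% for leaf. The longest unbroken run was 7 genes for root and 4 for leaf over the 10 libraries. How fragments shared by near-identical neighbours were counted is not known, and its part in these shares was not tested. No position in the genome was read from the identifiers.

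A small group of 92 identifiers carries the prefix ZosmaC, and 21 of them were tested. Over the 10 libraries, 0 of the 21 were higher in root and 14 in leaf, beside 12.9% and 10.8% of all genes, with a median log2 fold change of -3.64. In the fit of 7 libraries 0 were higher in root and 13 in leaf, beside 31.7% and 17.6% of all genes. A gene that passed the filter through leaf alone had to differ, so these counts describe the genes that passed. All 92 together made up 0.00223% ± 0.00127 of the scaled fragments in root (SD, n = 4) and 0.178% ± 0.113 in leaf (n = 6). The tissues did not overlap, and leaf replicate 4, at 0.318%, was the highest leaf.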

How the data were processed

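Messenger RNA was isolated on oligo(dT) beads and sequenced as paired reads of 100 bases, per the labels' protocols. Tools in the submitters' processing notes are Cuffdiff 2.2.1, Cuffnorm 2.2.1 and TopHat2 2.0.12, with no order. What build, annotation or strand setting was used is not given in the sources used here. In the first table the authors deposited, values are a signal: in each library 98.4% to 99.6% of those above 0 were, within 0.01, whole multiples of 1 step. Because residues near 0 were not whole, count-based tests were not run. A second table the authors deposited holds FPKM, used for levels between genes, for length and as an alternative.

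Log2(scaled fragments + 1) of the 10 libraries was fitted in R 4.3.3 by limma 3.58.1, 1 coefficient per tissue, with trended and robust eBayes. Fold changes on this scale understate the change of low genes. Genes called passed an adjusted p of 0.05 and 2-fold. Single values per library were compared with exact two-sided permutation tests. No replicates of a tissue agreed within sampling noise (smallest chi-square per degree of freedom 21.3, root replicates 0 and 1). The labels give no batch. Named genes are the 2 per direction with the highest mean FPKM in their tissue among non-overlapping genes called at 16-fold or more in both fits. The members, lists and libraries left out were chosen with earlier results of these data known. The steps were tested on simulated counts with no libraries lying apart, a setting that differs from the data. With 10 libraries, 5 of 50 genes changed 2-fold and 27 of 50 changed 4-fold were recovered. With 7 libraries 0 of 50 and 13 of 50 were recovered, so many small changes were missed in the simulation. Its spread per gene was taken from all 10 libraries, including the 3 that lie apart. These rates therefore do not carry over to the fit of 7. In the data the median standard error was 0.380 with 7 libraries and 0.505 with 10. Tables and plots used scipy 1.17.1, pandas 2.3.3, numpy 2.4.6, matplotlib 3.10.9 and Python 3.11.15. Alternatives covered pseudocounts, filters, scalings, the FPKM table, library weights, a fit of all grouped libraries, a replicate block and libraries left out.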

Additional observations from a re-analysis of the deposited data

How the results depend on the processing

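The number of genes called, 3771, moved by over 1.5 times in 4 settings: 9193 with library weights, whose estimation stopped before it converged and gave root replicate 1 a weight of 25.4, 7855 without root replicate 2 and leaf replicates 1 and 4, 6802 without leaf replicates 1 and 4, and 2386 with the replicate number as a block. The cause was not tested. The block leaves out 2 libraries, and the same 8 libraries without the block, a setting chosen after seeing the data, gave 2543. Same-numbered libraries did not deviate together throughout, with correlations of -0.420, 0.537, 0.165 and 0.152. The deviations were taken from tissue means that include the libraries lying apart. They therefore cannot show whether same-numbered libraries share a plant or a batch. Leaving out 1 library at a time gave 2581 to 5558. The 4 named genes kept their direction and call in every setting run, with adjusted p (limma) up to 0.00583. They were picked as non-overlapping and called at 16-fold or more in both fits, so this was nearly fixed in advance. The share in the 100 most abundant genes differed by -6.90 points without the 3 libraries, no longer past 0.05, and by -6.87 to -4.02 with 1 library left out. The difference in genes at 10 or more was 2192 without the 3 libraries and 1140 to 1629 with 1 library left out, and it passed 0.05 without root replicate 2 (1621), leaf replicate 1 (1629) or leaf replicate 4 (1460). Quantile normalization put leaf replicate 1 at 0.679 and leaf replicate 4 at 0.282 between leaf and root, and a pseudocount of 10 put leaf replicate 4 at 0.352. Depth of 6701350 fragments in the shallowest library, leaf replicate 0, limits statements on absence. The edgeR and DESeq2 alternatives were not run.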
